A study of Homo sapiens with 16 samples.

Results

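The transcripts of the mitochondrial genome were followed in RNA of HEK293T, a human line from embryonic kidney with the large T antigen of SV40. A gene was included if its symbol began with MT- and its chromosome in the count files was MT, which gave 35 of 57500 genes: 13 mRNAs and 22 tRNAs. The 2 ribosomal RNAs of the mitochondrial genome are not analysed here, so every mitochondrial total and share below covers mRNA and tRNA genes alone. All cells carried a lentivector for histone H2A, either the unchanged protein or H2A(E92K), where lysine takes the place of an acidic patch glutamate. The 4 groups of 4 libraries each were E92K cells with DMSO, H2A cells with 1 µM JQ1 for 3 h, H2A cells with 2.5 µM pinometostat for 24 h, and H2A cells with DMSO. JQ1 is a ligand of BET bromodomains and displaces BET proteins from chromatin. Pinometostat is an inhibitor of DOT1L, a histone H3 methyltransferase of transcribed genes. DMSO is named in the titles of the vehicle samples while their treatment field says None and gives no time, and the same H2A libraries with DMSO were the reference at 3 h and at 24 h, so that time in culture and compound cannot be told apart. Nothing in the labels says that numbered samples of a group were grown apart, so the p-values here reflect the spread of these samples alone, and that spread may be technical. In bulk RNA, fewer cells of a type and less RNA per cell cannot be told apart.

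Human mitochondrial DNA is a small circle whose strands, called heavy and light, are both transcribed almost end to end by the polymerase POLRMT with TFAM and TFB2M. The long transcripts are cut at the tRNAs that lie between most mRNAs, by RNase P at the 5′ end and ELAC2 at the 3′ end, so that many members share a precursor and their levels are not independent. The mRNAs encode subunits of respiratory complexes I, III and IV and of ATP synthase. Only MT-ND6 among the mRNAs lies on the light strand, the minus strand of the annotation, together with 8 of the 22 tRNAs.

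Of the 22 tRNA genes, 7 had a mean of at least 10 nuclear-scaled CPM, the counts per 1000000 counts of nuclear genes after TMM scaling on those genes. The sequences of 5 of them are shown because the results below turn on them, with the anticodon in capitals. They were read 5′ to 3′ on the gene's own strand from the GENCODE 29 transcripts (GRCh38), whose coordinates were those of the files for all 35 members. MT-TN, MT-TC and MT-TY are neighbours on the minus strand between MT-ND2 and MT-CO1, at MT:5657-5729, MT:5761-5826 and MT:5826-5891, and carry asparagine, cysteine and tyrosine. MT-TF (MT:577-647, plus strand) carries phenylalanine and opens the heavy-strand transcript. MT-TP (MT:15956-16023, minus strand) carries proline and is the first tRNA of the light-strand transcript.
MT-TN: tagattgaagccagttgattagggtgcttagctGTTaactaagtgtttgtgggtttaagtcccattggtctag
MT-TC: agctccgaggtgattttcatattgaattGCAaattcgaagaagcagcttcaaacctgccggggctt
MT-TY: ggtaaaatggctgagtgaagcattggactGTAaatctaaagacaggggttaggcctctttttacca
MT-TF: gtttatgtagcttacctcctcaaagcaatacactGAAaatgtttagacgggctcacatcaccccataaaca
MT-TP: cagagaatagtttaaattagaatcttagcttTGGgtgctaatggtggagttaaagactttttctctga

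The mRNAs lie edge to edge with the tRNAs or overlap each other, which bears on what a count can say. MT-ATP8 and MT-ATP6, subunits of ATP synthase, share 46 bases of a single mRNA (MT:8527-8572, plus strand). The shared stretch is shown with the start codon of MT-ATP6 and the stop codon of MT-ATP8 in capitals.
MT-ATP8/MT-ATP6: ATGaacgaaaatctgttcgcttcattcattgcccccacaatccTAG
MT-ND4L and MT-ND4 share 7 bases (MT:10760-10766), and MT-TI and MT-TQ, on opposite strands, overlap by 3. MT-ATP6 and MT-CO3 share 1 base, as do MT-TC and MT-TY. Counts of these pairs are therefore uncertain, as are counts of genes that face a transcript on the other strand, since the strand setting of the counting is not given in the sources used here. Reads on a tRNA gene may come from the tRNA, from an uncut precursor or from the transcript of the other strand, which these counts cannot tell apart.

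Libraries held 17779692 to 27599686 counts, of which 607223 to 2928426 were mitochondrial. A pair of libraries stood apart by their mitochondrial share, JQ1 replicate 1 and E92K replicate 4, and results are given with and without them. They were singled out by the values under test, so calls made without them are not independent of that choice. Of the kidney-lineage markers, 7 of 7 had a median of at least 1 nuclear-scaled CPM, with sums of 106 to 137 in E92K, 60.2 to 69.5 with JQ1, 96.2 to 109 with pinometostat and 121 to 145 in H2A with DMSO. Liver and muscle markers reached it in 0 of 5.

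The mitochondrial genome took 4.19%, 3.77%, 4.95% and 7.45% of the counts in E92K replicates 1 to 4. With JQ1 it took 16.5%, 3.69%, 3.04% and 3.27%, and with pinometostat 4.55%, 4.44%, 5.04% and 4.43%, against 3.95%, 3.66%, 3.84% and 4.02% in H2A with DMSO. All 4 pinometostat libraries lay above the range of H2A with DMSO, and of the JQ1 libraries other than replicate 1, 2 of 3 lay below it. Without the libraries that stood apart the means were 4.30 ± 0.599% in E92K (SD, n = 3), 3.34 ± 0.329% with JQ1 (n = 3), 4.61 ± 0.288% with pinometostat (n = 4) and 3.87 ± 0.160% in H2A with DMSO (n = 4).

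**Figure D1:**
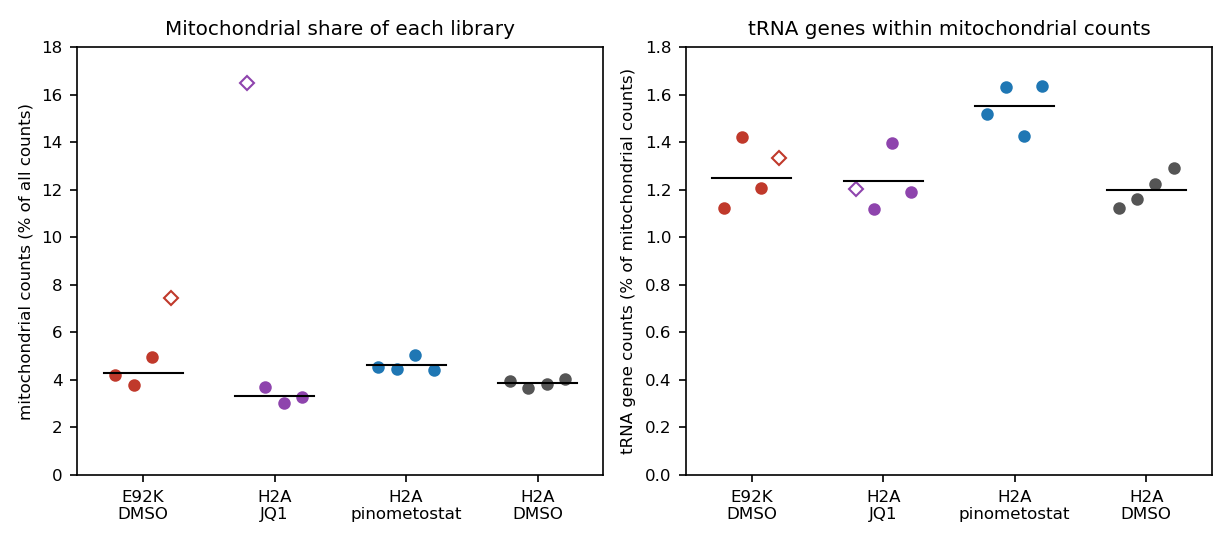
Mitochondrial counts as a percentage of all counts (left) and tRNA gene counts as a percentage of mitochondrial counts (right), 1 point per library, by group. Bars are means without JQ1 replicate 1 and E92K replicate 4 (open diamonds), which reach 16.5% and 7.45%, and the 4 pinometostat libraries lie above the 4 H2A libraries with DMSO in both panels.

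Of the counts on mitochondrial mRNA and tRNA genes together, tRNA genes took 1.52%, 1.63%, 1.43% and 1.64% with pinometostat, against 1.12%, 1.16%, 1.22% and 1.29% in H2A with DMSO, and the groups did not overlap. In E92K the tRNA share was 1.12% to 1.42% and with JQ1 1.12% to 1.4%, both across the range of H2A with DMSO. The minus-strand tRNAs gave most of the tRNA counts, 79.0% to 83.1% with pinometostat and 77.2% to 80.0% in H2A with DMSO.

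Per length, MT-CO1, the catalytic core of complex IV, was the most abundant mRNA in H2A with DMSO, at 8354 ± 564 nuclear-scaled CPM per kilobase (SD, n = 4). It was followed by MT-ATP6 (5094 ± 382), MT-CO2 (4523 ± 433), MT-CO3 (4458 ± 524) and MT-ATP8 (4394 ± 292), whose ranges overlapped from each to the next. Complex I subunits lay lower, from 2775 ± 204 for MT-ND4 to 1254 ± 126 for MT-ND3, and the 13 mRNAs spanned a 6.66-fold range per kilobase. MT-CYB, the complex III subunit (2311 ± 154), and MT-ND6 of the light strand (2301 ± 85.4) stood next to each other and their ranges overlapped. Among the tRNA genes MT-TN led at 3065 ± 571 nuclear-scaled CPM per kilobase, with a mean between those of the mRNAs MT-ATP8 and MT-ND4, and was followed by MT-TP (887 ± 70.7), MT-TL1, which carries leucine (810.0 ± 106), MT-TY (735 ± 60.2) and MT-TC (554 ± 47.0), and MT-TM, at 0.735 ± 0.301, came last. The 15 tRNA genes with a mean under 10 nuclear-scaled CPM had means of 0.126 to 8.44, and 5 of them, MT-TM, MT-TS1, MT-TD, MT-TK and MT-TR, were too low to be tested. The filter on low counts left 30 members for the test, 13 mRNAs and 17 tRNAs.

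With pinometostat, 13 of 13 mRNAs and 14 of 17 tested tRNAs had a log2 fold change above 0 over all libraries, and among members with at least 10 nuclear-scaled CPM the differences were widest for the tRNA genes MT-TN, MT-TF and MT-TP and the complex I mRNA MT-ND4L. Groups did not overlap for 13 of the 30 tested members, 9 mRNAs and 4 tRNAs, all higher with pinometostat, where 11.6% of all 17306 tested genes lay higher without overlap. Over all 16 libraries DESeq2 called 0 of 30 and limma-voom 0. The quasi-likelihood test of edgeR called 0 of 30, with 1 at an unadjusted p below 0.05. It called 8.51% of all genes at a Benjamini-Hochberg adjusted p below 0.05, and 4422 of 17306 had an unadjusted p below 0.05. Without JQ1 replicate 1 and E92K replicate 4, which belong to neither group but enter the estimate of each gene's spread, the same test called 12 members, 4 mRNAs and 8 tRNAs, all higher. In that fit 11.1% of 17446 genes were called higher and 27.5% in either direction.

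MT-TN had 426, 425, 412 and 398 nuclear-scaled CPM with pinometostat, against 193, 194, 225 and 282 in H2A with DMSO. Every pinometostat library was above every H2A library with DMSO. The log2 fold change was 0.89 ± 0.41 over all libraries (edgeR, Benjamini-Hochberg adjusted p = 0.178) and 0.88 ± 0.10 without the libraries that stood apart (adjusted p = 4.53e-05). Its neighbour MT-TY had 36.3, 41.7, 46.2 and 56.1 nuclear-scaled CPM with pinometostat, against 53.1, 46.9, 50.2 and 43.9 in H2A with DMSO, and these ranges overlapped. The ratio of MT-TN to MT-TY counts, chosen after the values were seen and given without a test, was 11.7, 10.2, 8.93 and 7.09 with pinometostat and 3.64, 4.15, 4.50 and 6.43 in H2A with DMSO. Both genes lie on the minus strand with MT-TC between them, so genes of the same stretch differed in how far they stood from the H2A libraries with DMSO.

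MT-TF had 23.6, 23.9, 28.5 and 27.8 nuclear-scaled CPM with pinometostat, against 14.6, 11.8, 15.6 and 17.3 in H2A with DMSO. The groups did not overlap. The log2 fold change was 0.81 ± 0.45 over all libraries (edgeR, Benjamini-Hochberg adjusted p = 0.275) and 0.80 ± 0.12 without the libraries that stood apart (adjusted p = 0.000160). MT-TP had 73.4, 94.9, 95.4 and 109 with pinometostat, against 59.6, 54.1, 65.6 and 61.9 in H2A with DMSO. It too did not overlap. MT-TP stood at 0.63 ± 0.41 over all libraries (edgeR, Benjamini-Hochberg adjusted p = 0.352) and at 0.61 ± 0.11 without the libraries that stood apart (adjusted p = 0.000458). These genes lie near the opposite ends of the coding part of the map and on different strands. The other tRNAs called in that fit were MT-TH, which carries histidine (0.75 ± 0.25), MT-TE for glutamate (0.49 ± 0.17), MT-TV for valine (0.47 ± 0.13), MT-TC (0.31 ± 0.11) and MT-TL1 (0.30 ± 0.11), of which only MT-TE did not overlap between the groups. MT-TH and MT-TE rested on few counts, 28 to 84 and 69 to 113 per library of that fit.

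**Figure D2:**
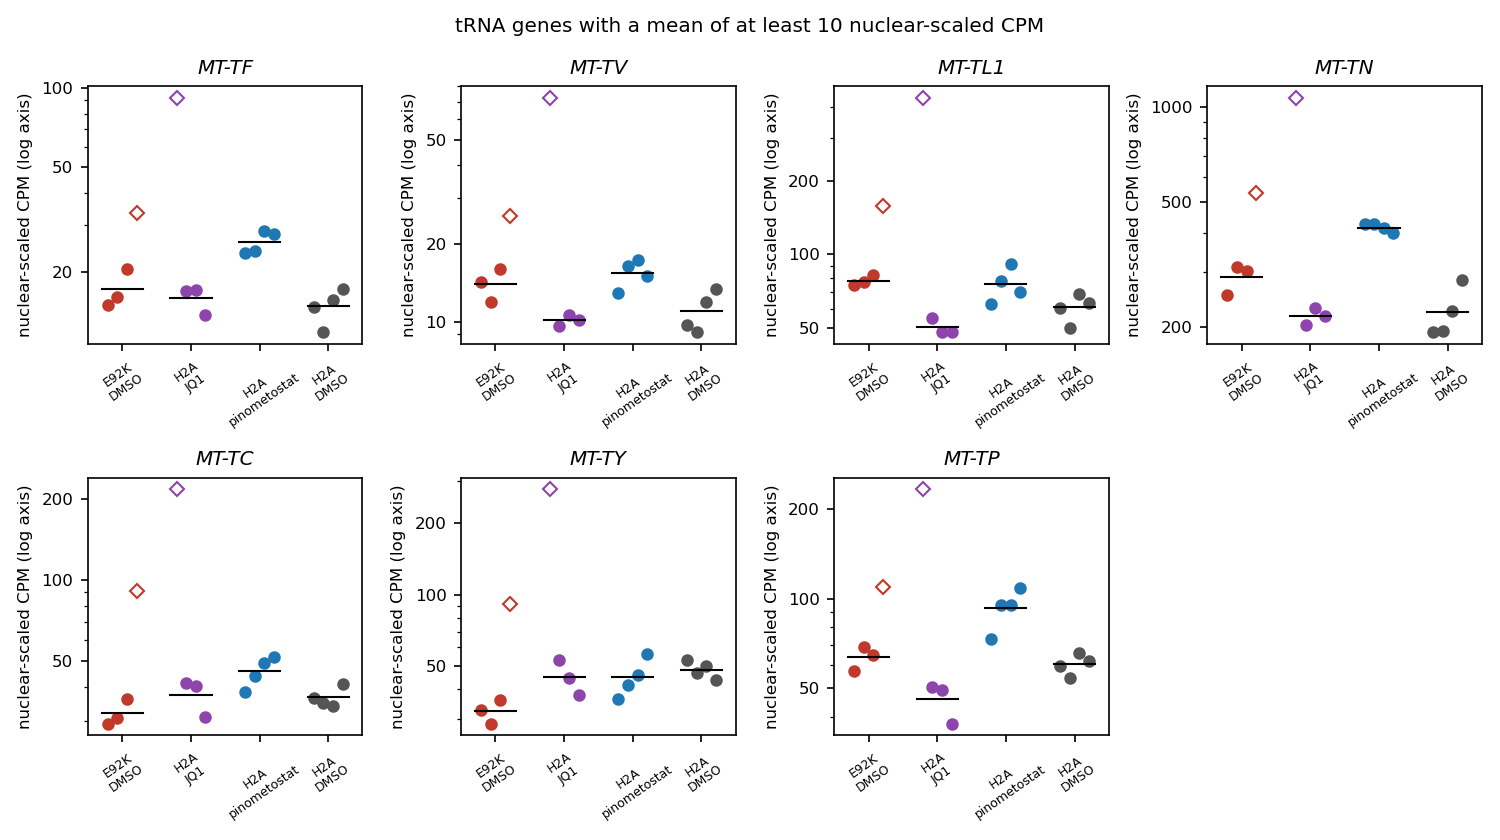
Nuclear-scaled CPM on log axes of the 7 tRNA genes with a mean of at least 10, 1 point per library, with bars at group means that leave out JQ1 replicate 1 and E92K replicate 4 (open diamonds). MT-TN, MT-TF and MT-TP lie higher in all 4 pinometostat libraries than in the 4 H2A libraries with DMSO, while MT-TY overlaps.

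Of the 13 mRNAs, MT-ND4L, MT-ND5 and MT-ND3, all complex I subunits, had the highest log2 fold changes with pinometostat, and MT-CYB the lowest, at 0.19 over all libraries. MT-ND4L (MT:10470-10766) had 1098, 1166, 1285 and 1207 nuclear-scaled CPM with pinometostat, against 804, 659.6, 799 and 938 in H2A with DMSO. The log2 fold change was 0.57 ± 0.39 over all libraries (edgeR, Benjamini-Hochberg adjusted p = 0.383) and 0.56 ± 0.12 without the libraries that stood apart (adjusted p = 0.00152). MT-ND3 (MT:10059-10404) had 586, 589.8, 583 and 575 with pinometostat, against 439.7, 387, 419 and 491 in H2A with DMSO. MT-ND5 (MT:12337-14148) had 3738, 3976, 4573 and 4065 with pinometostat, against 2874, 2838, 3193 and 3242 in H2A with DMSO. Each was higher in all 4 pinometostat libraries. Over all libraries edgeR gave 0.43 ± 0.41 for MT-ND3 (Benjamini-Hochberg adjusted p = 0.551) and 0.43 ± 0.40 for MT-ND5 (adjusted p = 0.537). Without the libraries that stood apart edgeR gave 0.41 ± 0.09 for both (Benjamini-Hochberg adjusted p = 0.00233 for MT-ND3 and 0.00159 for MT-ND5). MT-ND4, which shares its mRNA with MT-ND4L, was called in that fit with a smaller difference, 0.26 ± 0.09 (adjusted p = 0.0452). Over all libraries MT-ND4 stood at 0.27 ± 0.45 (edgeR, adjusted p = 0.749).

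The remaining 9 mRNAs were not called in either fit, at 0.17 to 0.25 on the log2 scale without the libraries that stood apart. MT-CO1 had 14217, 14587, 17867 and 15367 nuclear-scaled CPM with pinometostat, against 12749, 11704, 13593 and 13479.9 in H2A with DMSO, with no overlap and an edgeR adjusted p of 0.0562 without the libraries that stood apart. MT-ND6, the light-strand mRNA, had 1246, 1306, 1628 and 1382 with pinometostat, against 1210.3, 1168, 1269.8 and 1184 in H2A with DMSO, and overlapped. Over all 16 libraries the median log2 fold change was 0.26 for the 13 mRNAs and 0.48 for the 17 tested tRNAs, beside 0.01 for all genes.

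In E92K cells the summed mitochondrial mRNA was 38666 to 79199 nuclear-scaled CPM, against 35646 to 41833 in H2A cells with DMSO, and replicate 4 was the highest. The edgeR test over all 16 libraries called 0 of 30 members (0 at an unadjusted p below 0.05; 0 with DESeq2 and 0 with limma-voom), and it called 0% of all genes, with 1291 at an unadjusted p below 0.05. Groups did not overlap for 2 members, MT-ND2 of complex I and MT-TL1, both higher in E92K, where 1.83% of all genes lay higher without overlap. MT-ND2 had 1609, 1593, 1790.1 and 3073 nuclear-scaled CPM in E92K, against 1457, 1363, 1478 and 1485 in H2A with DMSO. MT-TL1 had 74.7, 77.2, 82.3 and 158 in E92K, against 60.5, 50.1, 69.1 and 63.3 in H2A with DMSO. In both genes E92K replicate 4 was highest by far and the other E92K libraries were just above the H2A libraries.

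Without replicate 4 and JQ1 replicate 1, the median log2 fold change of the 13 mRNAs was 0.15 and that of the 17 tRNAs 0.08, against 0.41 and 0.35 over all libraries. Still 0 members were called, where 0.0172% of all genes were. At an unadjusted p below 0.05 there were 7 of the 30 members, beside 2024 of all 17446 genes. In that fit MT-TY stood on the other side. It had 32.9, 28.7 and 36.0 nuclear-scaled CPM in E92K replicates 1 to 3 and 91.5 in replicate 4, against 53.1, 46.9, 50.2 and 43.9 in H2A with DMSO. Replicates 1 to 3 all lay below the H2A libraries, where 5.19% of all genes lay lower without overlap and 2.99% higher, at -0.57 ± 0.13 (edgeR, Benjamini-Hochberg adjusted p = 0.302), and replicate 4 lay above them. MT-TN had 253, 310.3 and 302 in E92K replicates 1 to 3 and 534 in replicate 4, against 193, 194, 225 and 282 in H2A with DMSO, at 0.37 ± 0.11 without the libraries that stood apart (adjusted p = 0.302). The ratio of MT-TN to MT-TY counts was 7.70, 10.8, 8.38 and 5.83 in E92K, against 3.64, 4.15, 4.50 and 6.43 in H2A with DMSO, again a ratio chosen after the values were seen.

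With JQ1, replicate 1 held several times more of every mitochondrial mRNA than the other 3 JQ1 libraries, none of which was above the highest H2A library with DMSO for MT-CO1. Over all 16 libraries DESeq2 called 2 of 30 members and limma-voom 0. The edgeR test called 0 of 30 members, with 20 at an unadjusted p below 0.05. It called 16.8% of all 17306 genes, with 5103 at an unadjusted p below 0.05. With no filter on low counts it called 24 members, all higher, and 3066 of all genes. Of the genes called with the filter, 936 were higher and 1974 lower. With upper quartile scaling, which moved the median of all genes by 0.15 on the log2 scale, 2339 were higher and 1443 lower, and with the nuclear total alone 535 and 2549. Groups did not overlap for 0 members, where 6.47% of all genes lay higher and 13.7% lower without overlap.

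MT-CO1 had 69546, 13258.5, 11068 and 10984 nuclear-scaled CPM with JQ1, against 12749, 11704, 13593 and 13479.9 in H2A with DMSO. The first JQ1 library was far above all others and 2 of the other 3 were below the H2A libraries. Over all libraries the log2 fold change was 1.03 ± 0.45 (edgeR, Benjamini-Hochberg adjusted p = 0.133), and without the libraries that stood apart it was -0.13 ± 0.11 (adjusted p = 0.392). For the 13 mRNAs the median log2 fold change was 0.98 over all libraries and -0.13 without the libraries that stood apart, where all 13 were below 0. That second value is smaller than the 0.15 by which upper quartile scaling moved the median of all genes, and scaling was not varied in the fit without those libraries. In that fit 1 member was called, MT-TP, which fell, where 14.2% of all genes were called lower and 23.7% in either direction. JQ1 replicate 1 was left out for its high mitochondrial values, so this call is not independent of that choice. MT-TP had 232 in JQ1 replicate 1 and 50.6, 49.6 and 38.1 in the others, against 59.6, 54.1, 65.6 and 61.9 in H2A with DMSO. Replicates 2 to 4 all lay below the H2A libraries, where 17.7% of all genes lay lower without overlap, at -0.39 ± 0.12 (edgeR, Benjamini-Hochberg adjusted p = 0.0190). Over all libraries MT-TP stood at 0.62 ± 0.41 and was not called (edgeR, Benjamini-Hochberg adjusted p = 0.342).

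**Figure D3:**
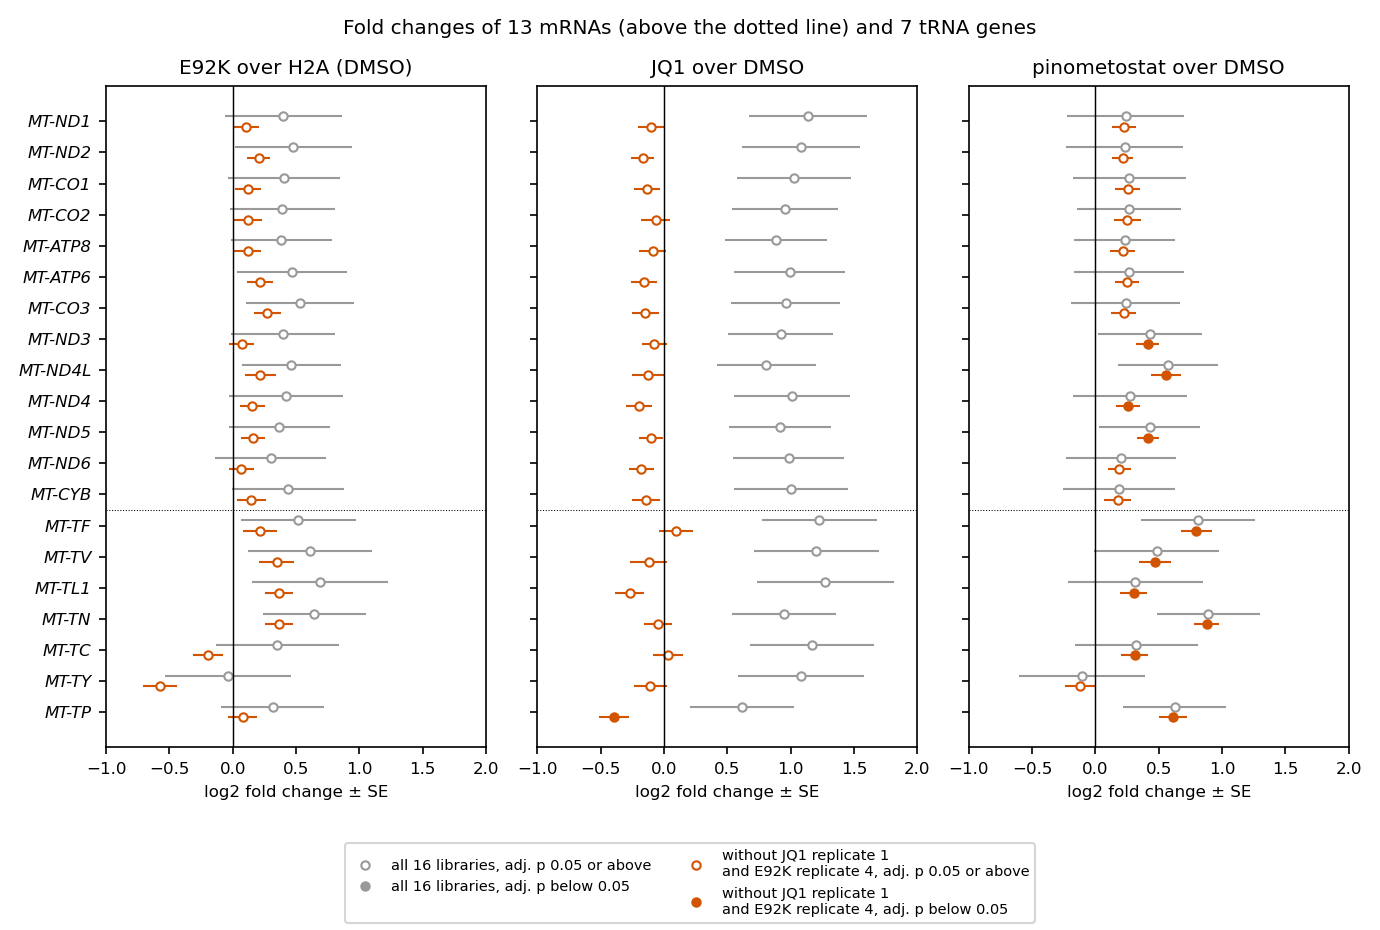
Log2 fold changes with SE bars against H2A with DMSO for the 13 mRNAs and the 7 tRNA genes with a mean of at least 10 nuclear-scaled CPM, over all 16 libraries (grey) and without JQ1 replicate 1 and E92K replicate 4 (orange). Filled points have an edgeR Benjamini-Hochberg adjusted p below 0.05; all grey points are open, and with TMM scaling the orange mRNA points lie below 0 with JQ1 (-0.20 to -0.07) and above 0 with pinometostat.

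JQ1 replicate 1 stood high over the whole map. It also had the fewest nuclear counts, on which values were scaled: 14851266, against 19334813 to 26590714 in all other libraries. Relative to the mean of the other 3 JQ1 libraries its 13 mRNAs were 4.63 (MT-ND4L) to 6.48 (MT-ND2) times higher, with a median of 5.83. Of the tRNAs, 9 were compared and were 3.13 (MT-TH) to 8.68 (MT-TL1) times higher. In E92K replicate 4 the mRNAs were 1.63 (MT-ND5) to 2.03 (MT-ND3) times higher than the mean of the other E92K libraries, and 9 tRNAs 1.07 (MT-TH) to 2.86 (MT-TC) times. MALAT1, a nuclear-retained RNA, was highest in these libraries within their groups. It had 939 nuclear-scaled CPM in JQ1 replicate 1 and 54.9 to 64.0 in the other JQ1 libraries, 362 in E92K replicate 4 and 85.1 to 151 in the other E92K libraries, against 61.9 to 124 in H2A with DMSO. NEAT1, also nuclear, had 356 in JQ1 replicate 1 and 38.1 to 63.1 in the other JQ1 libraries, 111 in E92K replicate 4 and 48.4 to 103 in the other E92K libraries, against 46.1 to 65.9 in H2A with DMSO. RN7SL2, an RNA of the signal recognition particle, had 68.9 in JQ1 replicate 1, within the range of its group (49.7 to 75.4 in replicates 2 to 4). In E92K replicate 4 it had 139, above the 57.7 to 78.6 of the other E92K libraries, against 35.6 to 149 in H2A with DMSO. Of the 7 genes of the list of nuclear-retained and small nuclear or cytoplasmic RNAs, 3 had a median of at least 1, and RN7SK, RN7SL1 and RPPH1 were at 0 in all 16 libraries. Its sum was 191 to 613 in E92K, 143 to 1364 with JQ1, 203 to 306 with pinometostat and 144 to 337 in H2A with DMSO. Over all tested genes, the deviations of JQ1 replicate 1 and E92K replicate 4 from their group means correlated with each other (r = 0.781). The part of RNA quality or composition in the mitochondrial values was not tested.

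The make-up of the mRNA counts varied far less than their amount. Taken as whole groups, the share of each mRNA among all mitochondrial mRNA counts overlapped H2A with DMSO for all 13 mRNAs in E92K and with JQ1. JQ1 replicate 1 lay above the H2A range for MT-ND1 (5.20%, against 4.47% to 4.72%) and MT-ND2. For MT-ND1 JQ1 replicate 3 (5.03%) and, barely, replicate 2 (4.73%) also lay above it, and replicate 4 lay below it (4.28%). JQ1 replicate 1 lay below the H2A range for MT-CO2, MT-ATP8, MT-ND3, MT-ND4L (1.66%, against 1.85% to 2.24%) and MT-ND5. E92K replicate 4 lay above it for MT-ND2 and below it for MT-ND5 and MT-ND6. MT-CO1 held 34.0% in JQ1 replicate 1 and 31.8% to 34.0% in the other JQ1 libraries, against 32.2% to 34.2% in H2A with DMSO. With pinometostat 2 of the 13 shares lay higher without overlap and 0 lower. Shares of a fixed total are tied to each other, and no matching rate over all genes was computed for them. MT-ND4L took 2.41% to 2.65% with pinometostat, against 1.85% to 2.24% in H2A with DMSO, and MT-ND5 8.27% to 8.93%, against 7.40% to 8.03%. In E92K MT-ND4L took 1.99% to 2.39% and MT-ND5 6.98% to 8.15%, and with JQ1 1.66% to 2.38% and 7.04% to 8.11%. E92K replicate 3 (2.39%) and JQ1 replicate 4 (2.38%) thus also lay above the H2A range for MT-ND4L. The ratio of MT-ND4L to MT-ND4 counts was 0.244 to 0.268 with pinometostat and 0.193 to 0.238 in H2A with DMSO, although both lie on a single mRNA. The ratio of the light-strand MT-ND6 to its neighbour MT-ND5 was 0.328 to 0.356 with pinometostat and 0.365 to 0.421 in H2A with DMSO. Both ratios were chosen after the values were seen.

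**Figure D4:**
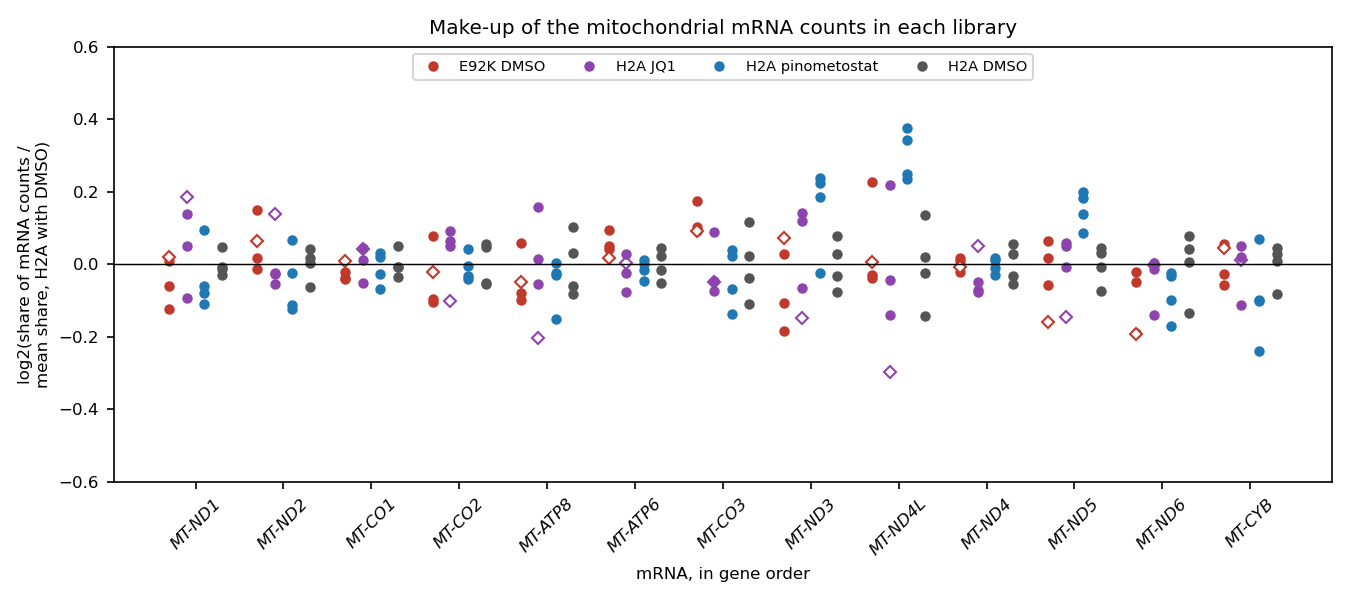
Log2 ratio of each mRNA's share of the mitochondrial mRNA counts to its mean share in H2A with DMSO, 1 point per library and gene order along the axis, with open diamonds for JQ1 replicate 1 and E92K replicate 4. MT-ND4L and MT-ND5 lie higher in all 4 pinometostat libraries than in the 4 H2A libraries with DMSO.

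Nuclear copies of mitochondrial genes can take or give reads. Of 405 such copies in the files, 3 had a mean of at least 5 nuclear-scaled CPM: MTND2P28, MTCO1P12 and MTATP6P1. Their counts were 0.204% to 0.310% of MT-ND2, 0.194% to 0.430% of MT-CO1 and 2.68% to 3.97% of MT-ATP6 over all libraries, and each was highest in JQ1 replicate 1. MTND2P28 reached the mean of 5 only through JQ1 replicate 1, at 23.5. Its means were 3.27 in the other JQ1 libraries, 4.70 in E92K, 4.69 with pinometostat and 3.25 in H2A with DMSO. Without the libraries that stood apart MTND2P28 rose with pinometostat, to 4.69 ± 0.873 against 3.25 ± 0.161 in H2A with DMSO (edgeR, Benjamini-Hochberg adjusted p = 0.0213), and MTCO1P12 fell, to 34.6 ± 7.04 against 47.2 ± 9.10 (adjusted p = 0.0418; SD, n = 4 each). Neither was called over all libraries. Values of the matching members are uncertain to the extent that reads were split between the copies.

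The nuclear genes that make and handle mitochondrial RNA were read from lists of mitochondrial transcription, RNA processing, RNA stability and turnover, RNA modification, mitochondrial DNA replication and regulators of mitochondrial biogenesis. Of their 82 symbols 78 matched a gene, and all 78 were tested. In E92K 0 were called by edgeR over all libraries, POLRMT at -0.21 ± 0.12 and TFAM at 0.10 ± 0.16. At an unadjusted p below 0.05 there were 8 of the 78, beside 1291 of all 17306 genes.

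With pinometostat 3 of the 78 rose and 4 fell over all libraries, beside 8.51% of all genes called. POLRMT, the mitochondrial RNA polymerase, had a log2 fold change of -0.47 ± 0.12 and fell (adjusted p = 0.0243 after Benjamini-Hochberg, edgeR). TEFM, its elongation factor, rose by 0.47 ± 0.12 (adjusted p = 0.0277), FASTKD1, which acts on mitochondrial mRNA levels, by 0.51 ± 0.11 (adjusted p = 0.0111), and OSGEPL1, a tRNA-modifying enzyme, by 0.46 ± 0.13 (adjusted p = 0.0333). The other falls were LONP1, the matrix protease that degrades TFAM (-0.74 ± 0.13), TOP1MT, the mitochondrial topoisomerase (-0.59 ± 0.13), and ELAC2, the tRNA 3′ nuclease (-0.29 ± 0.08). TFAM, which packages and activates the genome, stood at 0.21 ± 0.16 and LRPPRC, which stabilises its mRNAs, at -0.06 ± 0.15, and neither was called. Without the libraries that stood apart 14 rose and 9 fell, beside 27.5% of all genes called, and all 7 genes that passed over all libraries had an adjusted p below 0.05. Under 1 of the 5 scalings ELAC2 did not pass.

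With JQ1 4 of the 78 rose and 18 fell over all libraries, beside 16.8% of all genes called, and with upper quartile scaling 9 rose and 10 fell. TRMT5, a tRNA methyltransferase, fell, with a log2 fold change of -0.95 ± 0.12 (adjusted p = 2.17e-05 after Benjamini-Hochberg, edgeR), and PPARGC1A, a coactivator of mitochondrial biogenesis, fell too (-1.11 ± 0.16, adjusted p = 8.86e-05). TEFM (-0.58 ± 0.13), MTPAP, the mitochondrial poly(A) polymerase (-0.63 ± 0.13), and FASTKD1 (-0.56 ± 0.11) also fell, and POLG, the mitochondrial DNA polymerase, rose by 0.58 ± 0.14. These 6 passed the threshold under every one of the 5 scalings. POLRMT (0.07 ± 0.12), TFAM (-0.08 ± 0.16) and TFB2M (-0.46 ± 0.19) were not called under any of them, and the sign turned with the scaling for POLRMT (-0.03 to 0.23) and TFAM (-0.17 to 0.06).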

How the data were processed

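Total RNA of 16 HEK293T samples was sequenced, and samples were grouped by their titles. As deposited, the authors' files hold whole counts by gene, once per library and once as a table of the series, with 0 of 920000 cells different, and TPM values, used in 1 alternative. The treatment text gives pinometostat in millimolar; the sample field, 2.5 µM, was used. The aligner, the counter and the way RNA was selected have no entry in the labels used. edgeR 4.0.16 (R 4.3.3) fitted its quasi-likelihood model to the counts of all genes passing filterByExpr (minimum count 10, total 15; 17306 genes). Library size was the nuclear total times a TMM factor from nuclear genes, and all 16 libraries were fitted with group means (12 residual degrees of freedom, common dispersion 0.0309). Tests were two-sided, and p-values were adjusted by Benjamini-Hochberg across the genes tested (threshold 0.05); SE is the log2 fold change divided by the square root of F. The 3 comparisons share the 4 H2A libraries with DMSO. Named are the 13 mRNAs, the tRNAs called or with a mean of at least 10 nuclear-scaled CPM, and nuclear copies with a mean of at least 5. POLRMT, TFAM, TFB2M, TEFM, LRPPRC and up to 4 called genes per nuclear list are named too. No replicate pair looked like a library deposited more than once (chi-square per degree of freedom at least 3.77). The members and lists were chosen with earlier results of these data known. The fit was tested on simulated data. Alternatives used DESeq2 1.42.0, limma 3.58.1, other scalings and filters, and left-out libraries. Same-numbered samples were not paired by the labels: 0, 1 and 2 of 4 pairs correlated above 0.1 in the E92K, JQ1 and pinometostat comparisons. Figures used matplotlib 3.10.9 (Python 3.11.15). The list of blood cell markers is not reported here.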

Additional observations from a re-analysis of the deposited data

Results flagged for a closer look

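In 32 of 104 groups of 4 libraries, the gap between 1 extreme library and its nearest neighbour as a share of the group's range passed Dixon's critical value at 95%. Chance alone gives about 1 in 20 such groups, and the members share precursors, so these are not separate events. JQ1 replicate 1 and E92K replicate 4 had been set apart for high mitochondrial values, so flags on them restate that choice. In 25 of the 32 groups JQ1 replicate 1 was the highest. The gap was 0.952 of the range for the mitochondrial share, 0.956 for MT-ND1, 0.96 for MT-ND2, 0.986 for MT-ND3, 0.958 for MT-ND4, 0.936 for MT-ND4L, 0.961 for MT-ND5 and 0.95 for MT-ND6. For the other mRNAs it was 0.961 for MT-CO1, 0.946 for MT-CO2, 0.954 for MT-CO3, 0.952 for MT-ATP6, 0.939 for MT-ATP8 and 0.941 for MT-CYB. For the tRNAs it was 0.958 for MT-TF, 0.984 for MT-TV, 0.982 for MT-TL1, 0.97 for MT-TN, 0.945 for MT-TC, 0.936 for MT-TY, 0.954 for MT-TE and 0.936 for MT-TP, and for the nuclear copies 0.944 for MTND2P28, 0.909 for MTCO1P12 and 0.938 for MTATP6P1.

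E92K replicate 4 was the highest of its group in 5 cases, with a gap of 0.908 of the range for MT-TL1, 0.867 for MT-ND2, 0.891 for MT-TC, 0.884 for MT-TY and 0.868 for MT-ND6. Pinometostat replicate 3 was highest for MT-ATP6 (0.838), and H2A with DMSO replicate 3 was lowest for MTND2P28 (0.956).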

How the results depend on the processing

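Among mitochondrial members, JQ1 gave 2 calls with DESeq2, 2 with upper quartile scaling and 24 with no filter on low counts, all higher (3644, 3782 and 3066 of all genes), and 1, lower, without JQ1 replicate 1 and E92K replicate 4, an alternative chosen after seeing the data. Pinometostat gave 2 with no filter (1057 of all genes), 18 from a fit of its 8 libraries and 12 without those libraries. The tRNA median with JQ1 was -0.07 without them. Of all genes, E92K gave 4 calls with DESeq2, 4 with no filter and 3 without those libraries; JQ1 gave 1857 with 8 libraries and 1580 at 0.01; pinometostat gave 2370 with DESeq2, 4646 with 8 libraries, 4800 without those libraries, 457 with limma on TPM and 255 at 0.01. With the replicate number as a block, pinometostat gave 621 of all genes and 0 members. The replicate numbers share only a number, and 3 of 12 samples correlated best with their own number. The causes were not tested.

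Leaving out 1 library at a time gave 0 to 0 members for E92K, 0 to 7 for JQ1 and 0 to 6 for pinometostat (6 without JQ1 replicate 1). Calls over all genes were 0 to 4, 2219 to 3205 and 314 to 3514 (3514 without JQ1 replicate 1). mRNA medians were 0.15 to 0.55 for E92K, -0.15 to 1.24 for JQ1 and 0.19 to 0.29 for pinometostat, and tRNA medians 0.08 to 0.45, -0.083 to 1.18 and 0.40 to 0.59.

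The sign turned in E92K for MT-TY with upper quartile scaling (0.022) and for MT-TC without both libraries (-0.19). Leaving out 1 library, E92K ranged over -0.58 to 0.15 for MT-TY, -0.19 to 0.17 for MT-TH and -0.20 to 0.52 for MT-TC. With JQ1, MT-TP was -0.055 with limma on TPM. Without both libraries JQ1 gave -0.12 for MT-TV, -0.27 for MT-TL1, -0.05 for MT-TN, -0.11 for MT-TY, -0.39 for MT-TP, -0.10 for MT-ND1, -0.17 for MT-ND2, -0.08 for MT-ND3, -0.13 for MT-ND4L, -0.20 for MT-ND4, -0.10 for MT-ND5, -0.18 for MT-ND6, -0.13 for MT-CO1, -0.07 for MT-CO2, -0.15 for MT-CO3, -0.09 for MT-ATP8, -0.16 for MT-ATP6 and -0.14 for MT-CYB. Leaving out 1 library, JQ1 ranged over -0.13 to 1.48 for MT-TV, -0.28 to 1.57 for MT-TL1, -0.057 to 1.18 for MT-TN, -0.12 to 1.36 for MT-TY, -0.40 to 0.88 for MT-TP, -0.11 to 1.41 for MT-ND1, -0.18 to 1.35 for MT-ND2, -0.087 to 1.15 for MT-ND3, -0.14 to 1.05 for MT-ND4L, -0.21 to 1.27 for MT-ND4, -0.11 to 1.16 for MT-ND5, -0.19 to 1.24 for MT-ND6, -0.15 to 1.28 for MT-CO1, -0.078 to 1.2 for MT-CO2, -0.16 to 1.22 for MT-CO3, -0.10 to 1.13 for MT-ATP8, -0.17 to 1.25 for MT-ATP6 and -0.15 to 1.27 for MT-CYB. The planned medians of ribosomal RNAs could not be given. The 5 untested tRNAs had 0 to 25 counts per library, too few for a comparison.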
